A study of Mus musculus with 4 samples.

Results

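The genes described here build the perineuronal net and the looser matrix around it. They were 4 lecticans (Acan, Bcan, Ncan and Vcan), the link proteins Hapln1 and Hapln4, the tenascins Tnr and Tnc, the receptor phosphatase Ptprz1 and the hyaluronan synthase Has3. They were chosen by symbol, which gave 10 of the 32285 genes in the count matrices. RNA of single nuclei was counted in both hippocampi of adult mice at postnatal week 28, on the C57BL/6N background. Cyfip2+/R87C knock-in (KI) mice, heterozygous for an arginine-to-cysteine change in CYFIP2 and a model of West syndrome with recurrent seizures in adulthood, were compared with wild-type (WT) mice. There were 2 mice per genotype, each the source of 1 library, so that p-values comparing genotypes rest on 2 animals each and measure the spread between these animals. All libraries carry the same batch label. A label of KI replicate 2 names the allele Cyfip2+/R88C, while its genotype label reads KI, by which it was grouped.

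Perineuronal nets are mesh-like coats around some neurons, best known around Pvalb interneurons and, in the hippocampus, around CA2 pyramidal cells. Hyaluronan made at the cell surface forms the backbone, lecticans bind it through link proteins, and tenascin-R ties lectican tails together. Lecticans carry chondroitin sulfate chains, and the length and sulfation of these chains set what they bind. Glia make much of the diffuse brain matrix, and neurons can take part in making their own nets.

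Gene positions follow GENCODE M21, built on GRCm38, the assembly that mm10 also names. Each lectican gene lies beside a link protein gene. Acan (chr7:79053483-79115099, plus strand) ends 2 bases from Hapln3, which is read from the other strand. Bcan (chr3:87987531-88000230, minus strand) lies 21519 bases from Hapln2. Ncan (chr8:70093085-70120873, minus strand) lies 2222 bases from Hapln4 (chr8:70083457-70090862, plus strand), and Vcan (chr13:89655312-89742509, minus strand) lies 43659 bases from Hapln1 (chr13:89539796-89611652, plus strand). Tnr (chr1:159523769-159931729, plus strand), Tnc (chr4:63959785-64047015, minus strand), Ptprz1 (chr6:22875502-23052916, plus strand) and Has3 (chr8:106870242-106884566, plus strand) have no such partner. Vcan, Tnr, Tnc and Has3 overlap genes on the opposite strand (Gm4117, Gm38039, 8030451A03Rik and Chtf8). Whether the counting used strand was not given in the sources used here, so reads of such partners could have been mixed.

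RefSeq promoter sequences on GRCm38.p6 were at hand for 8 of the 10 genes, without Hapln4 and Has3. The 250 bases before the start are shown for Ptprz1, whose RNA differed between genotypes, and for Vcan, whose RNA differed most between glial classes. Capitals mark matches to the motifs searched on both strands: the E-box (CANNTG), the AP-1 site (TGANTCA), the cAMP response element (TGACGTCA), the GC box (GGGCGG) and a SOX core (AACAAT).
Ptprz1, chr6:22875252-22875501, plus strand: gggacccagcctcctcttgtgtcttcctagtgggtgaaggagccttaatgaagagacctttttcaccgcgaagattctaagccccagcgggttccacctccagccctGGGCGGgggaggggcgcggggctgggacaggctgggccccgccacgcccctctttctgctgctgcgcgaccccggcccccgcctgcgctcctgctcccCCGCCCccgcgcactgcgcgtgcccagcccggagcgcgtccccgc
Vcan, chr13:89742513-89742762, minus strand: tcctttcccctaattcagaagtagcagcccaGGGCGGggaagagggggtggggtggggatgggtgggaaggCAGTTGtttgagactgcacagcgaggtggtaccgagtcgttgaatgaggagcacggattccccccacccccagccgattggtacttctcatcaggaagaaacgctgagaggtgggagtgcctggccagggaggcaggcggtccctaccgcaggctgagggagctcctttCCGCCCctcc
Both windows held 2 GC boxes, a motif present in 32.7% of all 32851 promoter windows of that length. The Vcan window also held 1 E-box (66.2% of windows). Neither window had a match to the AP-1 site (6.75%), the cAMP response element (1.55%) or the SOX core (9.42%).

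The 4 libraries held 55640 barcodes with 73009975 to 80913580 UMIs (unique molecular identifiers, each 1 counted transcript) per library. After filtering, 11932 to 14927 nuclei per library remained, with a median of 3868 to 4699 UMIs per nucleus. Pairs of libraries shared 40 to 67 barcodes, at most 0.529% of the smaller library. Nuclei were put into 21 classes by marker genes that were none of the 10 genes, and each class is called a gate here. The gates took 27644 nuclei (53.1%), and 16 of the 21 gates had each of their markers highest in their own gate. The gate for subicular or cortical excitatory neurons was the weakest, with 2 of 5 markers highest in it. Levels are CPM, counts scaled to the total UMIs of the same gate and library, and are not compared between genes because reads came from the 3' ends. Cyfip2 itself was at 182 and 180.5 CPM in the WT libraries and at 172 and 171 CPM in the KI libraries, which does not test the label, since the change alters 1 codon. Acan, Hapln4, Tnc and Has3 were rare, with 547 to 1276 UMIs over all nuclei and libraries, against 2311 for Hapln1 and 147647 for Tnr.

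The lecticans had their highest mean levels in glial gates, which for Acan rested on few UMIs. Brevican (Bcan) was highest in the astrocyte gate, at 233 and 299 CPM (WT) against 204 and 177 CPM (KI). It was next in the gate of committed oligodendrocyte precursors (committed OPC), at 184 to 264 CPM, and in the oligodendrocyte precursor (OPC) gate, at 93.7 to 154 CPM. Among neurons Bcan stood out in the Pvalb interneuron gate, at 58.1 and 62.6 CPM (WT) against 50.4 and 36.2 CPM (KI). No other neuronal gate with at least 20 nuclei per library averaged more than the 26.4 CPM of the CA1 gate. The Pvalb range lay wholly above that of CA1 (18.6 to 34.2 CPM) and overlapped that of Cajal-Retzius cells (12.5 to 40.3 CPM), which had 2 to 8 UMIs per library.

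Versican (Vcan), a lectican with a wide tissue range, was highest in OPC and committed OPC. The OPC gate held 560 and 526 CPM (WT) against 658 and 414 CPM (KI), and the committed OPC gate held 381 to 684 CPM. The OPC gate had 2.55% of the nuclei and 32.2% ± 5.92 (SD, n = 4 libraries) of all Vcan UMIs. The next level was in Lamp5 interneurons, at 139 and 102 CPM (WT) against 55.1 and 236 CPM (KI). The CA2 gate followed the oligodendrocyte gate, at 55.6 and 59.3 CPM (WT) against 14.6 and 45.9 CPM (KI). KI replicate 1 was the lowest library in both of these neuronal gates. In the remaining pyramidal gates and the dentate gyrus (DG) granule gate Vcan lay between 6.21 and 18.1 CPM.

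Neurocan (Ncan), a lectican of the nervous system, was found at its highest level in astrocytes, at 73.6 and 99.9 CPM (WT) against 51.5 and 71.8 CPM (KI), and the DG granule gate held 40.4 to 50.3 CPM. All 17 pairs of neighbours in the order of its 18 gates had overlapping ranges. Aggrecan (Acan), the lectican used most often to mark nets, reached 5 CPM on average in 4 gates only: committed OPC, CA2, OPC and Pvalb. The committed OPC gate held 11.8 to 24.1 CPM, from 1.18% to 2.04% of the Acan UMIs of a library, which had 589 over all libraries. This range overlapped that of CA2. The CA2 values of Acan were 17.8 and 10.8 CPM (WT) against 3.66 and 12.4 CPM (KI), which came from 2 to 10 UMIs per library. In the Pvalb gate 1 to 4 UMIs per library gave 2.19 to 9.30 CPM, which overlapped the Sst gate (1.37 to 3.05 CPM), and with so few UMIs no order among the interneuron gates can be read. No test was run between them, since Acan did not pass the filter on low counts. The microglia gate, which should lack Acan, held 1.35 to 7.27 CPM. In the OPC gate Acan had 9 to 25 UMIs per library and 6.82 to 17.9 CPM.

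**Figure D1:**
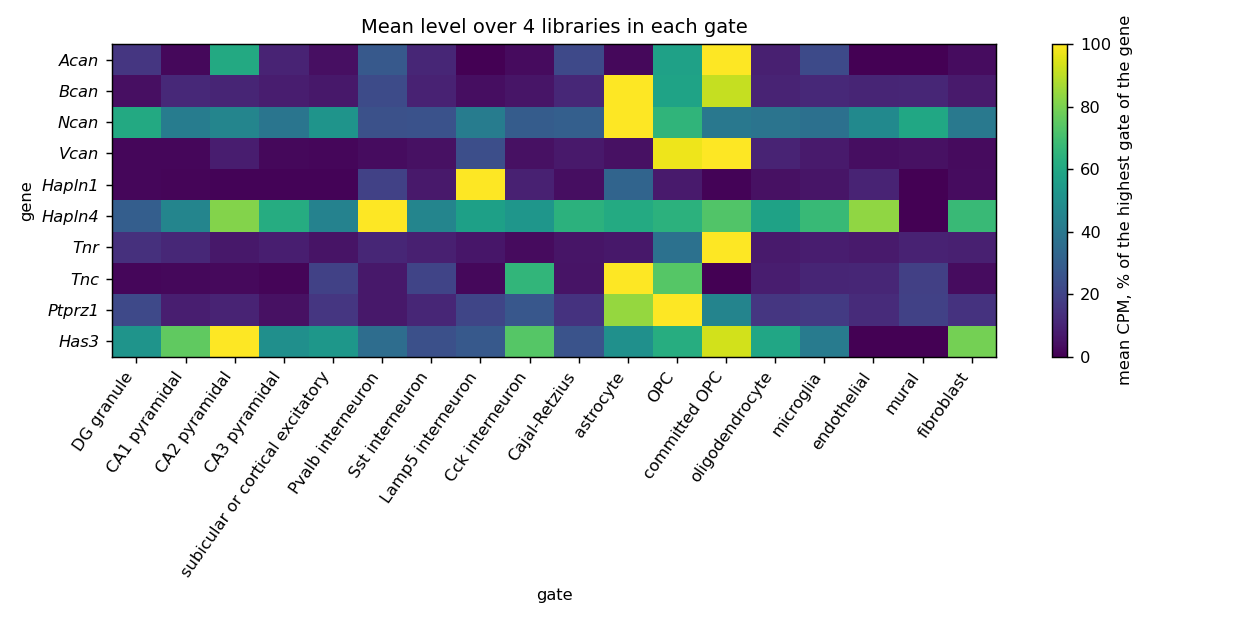
Mean CPM over the 4 libraries of the 10 genes (rows) in the 18 gates with at least 20 nuclei in every library (columns), as a percentage of the gate where that gene was highest. Vcan and Tnr peak in the OPC and committed OPC gates, Bcan, Ncan and Tnc in astrocytes and Hapln1 in Lamp5 interneurons; the rows of Acan, Hapln4, Tnc and Has3 rest on few UMIs.

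The link proteins, which lock lecticans onto hyaluronan, had their highest levels in interneuron gates. Hapln1 was highest in Lamp5 interneurons, at 165 and 163 CPM (WT) against 48.5 and 173 CPM (KI). This gate had 0.590% of the nuclei and 11.5% ± 4.84 (SD, n = 4) of the Hapln1 UMIs. Astrocytes came next, at 52.3 and 60.6 CPM (WT) against 30.2 and 33.7 CPM (KI), and then the Pvalb gate, at 16.3 and 25.0 CPM (WT) against 30.7 and 33.4 CPM (KI). Pyramidal and DG granule gates held at most 3.66 CPM. Hapln4, the link protein paired with Bcan around some synapses, had its highest mean in the Pvalb gate, at 4.65 and 8.94 CPM (WT) against 13.1 and 11.1 CPM (KI), from 2 to 6 UMIs per library. The microglia gate held 4.84 to 9.61 CPM, a range that overlapped the Pvalb range, and ranges overlapped between 16 of the 17 pairs of neighbouring gates.

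The tenascins differed in kind. Tenascin-R (Tnr), the cross-linker of lecticans, reached 6169 and 5521 CPM in the committed OPC gate of WT and 4443 and 4223 CPM in that of KI (log2 fold change -0.34 ± 0.24, SE, edgeR, adjusted p = 0.622). The 5 markers that set this gate were all lower in both KI libraries, summing to 4943 and 3935 CPM (WT) against 3147 and 2731 CPM (KI), and their part was not tested. The OPC gate held 1670 to 2111 CPM and the DG granule gate 556 to 760 CPM, and neither range touched the one above it. Astrocytes held 254 to 420 CPM of Tnr, below the DG granule gate. Tnr had UMIs in every gate, down to 117 CPM in Cck interneurons. These lay wholly below the 297 to 476 CPM of the microglia gate, taken below as a measure of free RNA. Astrocytes, CA2, CA3 and Lamp5 interneurons overlapped that range, so UMIs alone do not show that these classes make Tnr. Tenascin-C (Tnc), a tenascin of the developing brain, was highest in astrocytes, at 18.0 and 34.4 CPM (WT) against 7.84 and 12.4 CPM (KI). The OPC gate followed at 13.6 and 23.9 CPM (WT) against 6.82 and 9.10 CPM (KI). In both glial gates the 2 KI libraries were below the 2 WT libraries, in a setting where the genotypes did not overlap for 45.4% of genes in astrocytes and 46.7% in OPC (genes with at least 10 UMIs per library on average). Tnc also appeared in Cck interneurons at 4.19 to 27.0 CPM, from 2 to 12 UMIs.

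Ptprz1, a receptor phosphatase whose shed ectodomain is itself a chondroitin sulfate proteoglycan of nets, was highest in OPC (826 to 1246 CPM) and astrocytes (827 to 1038 CPM), whose ranges overlapped. Among interneurons the Vip gate had 568 and 675 CPM (WT) against 829 and 715 CPM (KI), though WT replicate 2 had 9 nuclei there. The Cck gate held 236 to 332 CPM, the Lamp5 gate 155 to 286 CPM and the CA3 gate 34.4 to 57.7 CPM, its lowest. Has3, which makes hyaluronan, averaged under 5 CPM in each of the 18 gates, and its order among gates could not be read.

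Free RNA in droplets adds UMIs to nuclei that do not make a transcript, and the microglia gate served as a measure of it. Its nuclei had means of 2241 to 3840 UMIs, against 4873 to 5351 in the DG granule gate, and held on average 0.311 to 0.940 UMIs of Ptprz1 and 0.665 to 1.83 of Tnr. They held 0.0554 to 0.223 UMIs of Vcan and 0.0308 to 0.126 of Bcan. Pvalb nuclei, at 0.325 to 0.510 UMIs of Bcan, lay above that range, and so did Tnr in DG nuclei (2.98 to 3.93 UMIs) and in Pvalb nuclei (3.83 to 5.59 UMIs). CA2 nuclei held 0.148 to 0.550 UMIs of Vcan, which overlapped the microglia, and in CPM the overlap was nearly complete (14.6 to 59.3 against 24.7 to 58.1). The Ptprz1 UMIs per nucleus overlapped those of microglia in CA3 (0.288 to 0.495), CA1 (0.506 to 0.940) and CA2 (0.460 to 1.60), so these levels cannot be told from free RNA. In CPM, Ptprz1 in DG (164 to 337 against 139 to 245), Bcan in CA1 and CA3, Hapln4 in CA3 and Vcan in oligodendrocytes also overlapped the microglia. Acan, Bcan, Hapln4 and Vcan in DG were not above them. Tnr in microglia was at 297 to 476 CPM, a range that overlapped Tnr in astrocytes, CA2, CA3 and the Sst and Lamp5 interneurons. Cck interneurons lay below it (117 to 193 CPM).

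To ask which classes carry more of these transcripts, gates were compared in 1 fit over all genes with the library as a block. The edgeR quasi-likelihood test was used, with p adjusted by Benjamini-Hochberg. The fit estimated the spread from all of its 20 gates together. Its p-values therefore do not measure the spread between mice within the gates of a single contrast. Acan, Hapln4, Tnc and Has3 did not pass the filter on low counts, so 6 of the 10 genes were tested. Each of the 6 was higher in the glial gates (the mean of astrocytes and OPC) than in the mean of the 12 neuronal gates, where 28.1% of all 12093 genes were higher and 47.6% differed in either direction. The log2 difference was 3.19 ± 0.12 (SE) for Bcan, 2.66 ± 0.11 for Ptprz1, 2.38 ± 0.18 for Vcan, 2.19 ± 0.25 for Hapln1, 1.0 ± 0.11 for Ncan and 0.89 ± 0.08 for Tnr. Of the 2 glial gates, only OPC had Tnr levels above those of every neuronal gate. The same held for Vcan, as astrocytes (21.3 to 30.1 CPM) lay below Lamp5 interneurons (55.1 to 236 CPM). For Hapln1 neither glial gate (30.2 to 60.6 CPM in astrocytes, 6.82 to 15.3 CPM in OPC) lay above Lamp5 interneurons (48.5 to 173 CPM). Ncan in OPC (35.6 to 57.2 CPM) overlapped the DG granule gate (40.4 to 50.3 CPM). The largest adjusted p of the 6 was 2.6e-11, that of Hapln1. The median of the 6 was 2.29, and that of 39 other matrix genes tested was 0.27.

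The 2 glial classes split the set. OPC nuclei were higher than astrocytes in Vcan by 4.51 ± 0.26 on the log2 scale (adjusted p = 1.51e-24) and in Tnr by 2.60 ± 0.15 (adjusted p = 4.91e-24). Astrocytes were higher than OPC in Hapln1 (-2.12 ± 0.29, adjusted p = 7.57e-09), Bcan (-0.77 ± 0.18, adjusted p = 0.000338) and Ncan (-0.60 ± 0.18, adjusted p = 0.00552). Ptprz1 did not pass, at 0.27 ± 0.22 (adjusted p = 0.377). Thus 5 of 6 genes passed, beside 31.3% of all genes in either direction. The Ncan difference did not pass without either of the 2 WT libraries in turn.

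Pvalb interneurons, the classic net-bearing cells, were set against the mean of the Sst, Vip, Lamp5 and Cck gates. Bcan was higher by 2.14 ± 0.30 on the log2 scale (adjusted p = 9.83e-08) and Tnr by 1.03 ± 0.12 (adjusted p = 2.22e-10). Ptprz1 was lower, at -1.83 ± 0.25 (adjusted p = 5.76e-08). The remaining differences did not pass: 0.54 ± 0.34 for Hapln1, -0.29 ± 0.31 for Ncan and -0.95 ± 0.43 for Vcan. Vcan passed at -0.98 without the filter (adjusted p = 0.0263), at -3.07 with stricter gates (adjusted p = 0.0187) and at -1.48 without KI replicate 1 (adjusted p = 0.0378), beside 4.55%, 4.67% and 7.51% of all genes. With classes from clusters in place of gates, it turned to 1.15 (adjusted p = 7.2e-06), so its direction here depends on how the class was drawn. The 3 called genes compare with 9.58% of all genes in either direction.

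CA2 pyramidal cells, which also bear nets, were set against the mean of CA1 and CA3. Vcan was higher in CA2 by 2.00 ± 0.31 (adjusted p = 1.43e-06) and Ptprz1 by 0.79 ± 0.23 (adjusted p = 0.0240), and Tnr was lower at -0.60 ± 0.13 (adjusted p = 0.00142). These were 3 of 6 genes, beside 5.11% of all genes. In CPM, the CA2 range of each of the 3 overlapped that of the microglia gate, used above as a measure of free RNA. Without WT replicate 2 the count was 1, that of Vcan, and Ptprz1 also lost its call without WT replicate 1 (0.88, adjusted p = 0.0636), without KI replicate 2 (0.57, adjusted p = 0.269) and with stricter gates (0.64, adjusted p = 0.222). Tnr without WT replicate 2 was at -0.52 (adjusted p = 0.0580) and Ptprz1 at 0.76 (adjusted p = 0.141). Summed markers of OPC in the CA2 gate were 84.4 and 108 CPM (WT) against 199 and 166 CPM (KI), against 2339 to 4465 CPM in the OPC gate, and none of the 5 was at 0. Their part in the Vcan value was not tested.

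**Figure D2:**
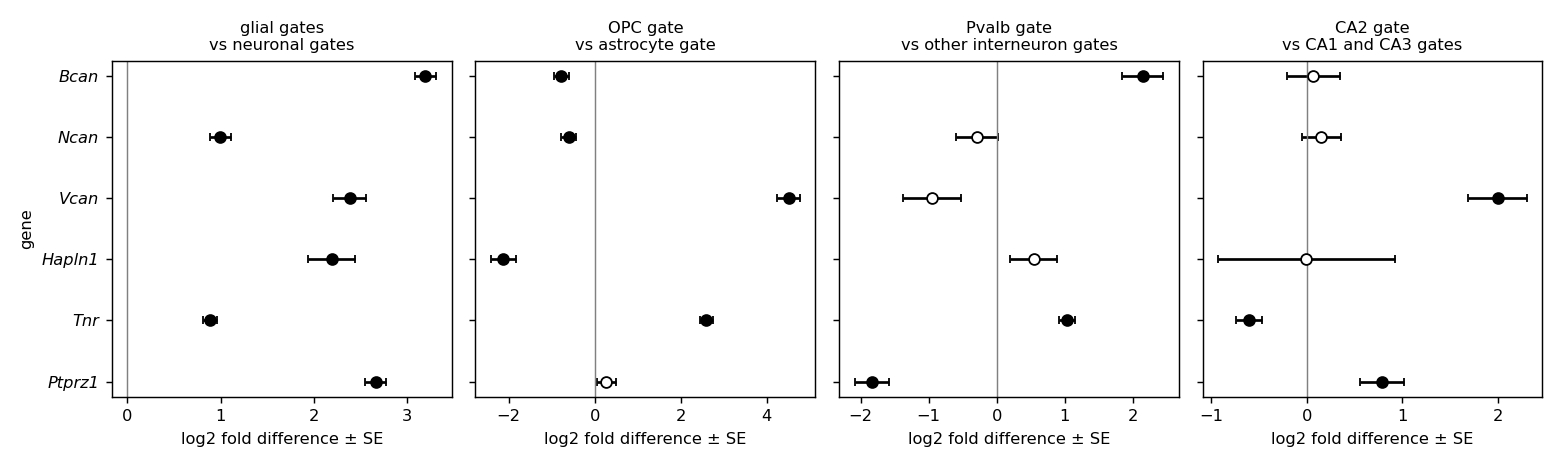
Log2 differences between gates with their standard errors (x axis) for the 6 genes that passed the low-count filter (y axis), in 4 contrasts of the same fit over 4 libraries; filled points have an adjusted p below 0.05 and scales differ between panels. All 6 points of the first panel are to the right of 0, and Vcan (4.51) and Hapln1 (-2.12) are the farthest apart between OPC and astrocytes.

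The genotypes were then compared within each gate, to ask whether these genes were altered in mice with adult seizures. In the DG granule gate Ptprz1 rose in KI. It was at 178 and 164 CPM in WT (171 ± 9.30, SD, n = 2) and at 258 and 337 CPM in KI (298 ± 56.1, SD, n = 2). Both KI libraries were above both WT libraries (61.2% of genes with at least 10 UMIs per library on average did not overlap between genotypes), and the log2 fold change was 0.92 ± 0.13 (SE, edgeR quasi-likelihood test, adjusted p = 0.00581). Per DG nucleus this was 0.866 and 0.863 UMIs in WT and 1.38 and 1.75 in KI, beside 0.420 and 0.511 and then 0.311 and 0.940 in the microglia of the same libraries. In CPM the microglia held 151 and 182 in WT and 139 and 245 in KI, so the DG level of WT replicate 2 was not above them. It was the 1 call among 95 tests of these genes in 18 gates, where 1.67% of all tests of genes in gates were called and 15 of the 95 had an unadjusted p below 0.05, beside 13.3% of all tests. Within the DG gate 5.24% of all genes were called as higher, and 10.4% in either direction, so 1 called gene among the 9 tested there is a share near the background.

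Several measurements stand beside the rise of Ptprz1. Summed OPC markers in the DG gate were 58.4 and 70.9 CPM (WT) against 224 and 157 CPM (KI), with 3 of 5 higher in both KI libraries and none at 0. Lhfpl3 was the largest part of that sum in each library, at 25.2 and 33.7 CPM (WT) against 168 and 110 CPM (KI), while the OPC-defining receptor Pdgfra was at 3.42 and 4.10 CPM (WT) against 5.84 and 5.24 CPM (KI). Vcan, which was highest in OPC and committed OPC, was at 8.98 and 6.60 CPM (WT) against 7.38 and 12.2 CPM (KI) in the DG gate, where the genotypes overlapped (0.44 ± 0.29, adjusted p = 0.364; 0.74, adjusted p = 0.0106, without KI replicate 1, beside 21.0% of all genes). The DG gate held 19.8 to 35.0 Ptprz1 UMIs per Vcan UMI, against 1.70 to 2.37 in the OPC gate and 27.4 to 41.3 in the astrocyte gate, which overlapped the DG range. It held 17.2 to 44.2 Ptprz1 UMIs per Bcan UMI, against 7.26 to 8.82 in the OPC gate and 3.48 to 4.67 in the astrocyte gate. Astrocyte markers in the DG gate summed to 815 and 790 CPM (WT) against 337 and 534 CPM (KI). Of that sum 312 to 758 CPM was Slc4a4, and 4 of the 6 astrocyte markers were lower in both KI libraries. Oligodendrocyte markers summed to 277 and 214 CPM (WT) against 363 and 337 CPM (KI), with 3 of 6 higher in both KI libraries. The DG granule markers that set the gate summed to 2084 and 1978 CPM (WT) against 1680 and 1752 CPM (KI), with 3 of 5 lower in both KI libraries. The part of these markers in the Ptprz1 value was not tested. The DG gate held 12.9% and 13.5% of nuclei in the WT libraries, against 10.2% and 8.63% in the KI libraries.

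**Figure D3:**
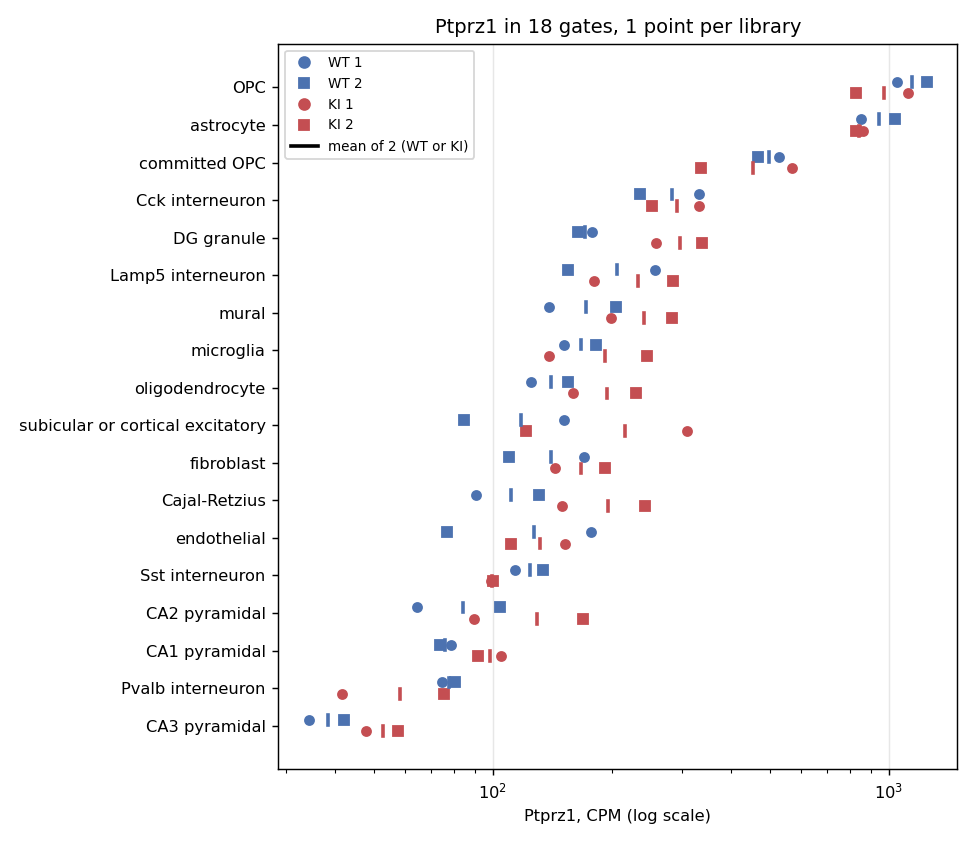
Ptprz1 in CPM on a log scale (x axis) in each of 18 gates (y axis, ordered by the mean of 4 libraries), with 1 point per library and a bar at the mean of each genotype. In the DG granule gate the KI points (258 and 337) lie to the right of the WT points (178 and 164). In OPC (826 to 1246) and astrocytes (827 to 1038) the genotypes overlap.

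In the hippocampal pyramidal gates, where 2.85% (CA3), 3.68% (CA1) and 0.0287% (CA2) of all genes were called, Ptprz1 had positive differences that did not pass. In CA3 it was at 34.4 and 42.2 CPM (WT) against 47.8 and 57.7 CPM (KI) (0.53 ± 0.15, adjusted p = 0.0968). In CA1 it was at 78.3 and 73.5 CPM (WT) against 105 and 92.0 CPM (KI) (0.45 ± 0.14, adjusted p = 0.116). The groups did not overlap in either gate, as for 54.6% of genes in CA3 and 53.6% in CA1 among those with at least 10 UMIs per library on average. With 1 KI library left out, and that genotype then assumed to vary like WT, CA3 passed both times (0.63, adjusted p = 2.2e-05, without KI replicate 1 and 0.44, adjusted p = 0.00258, without KI replicate 2) and CA1 passed without KI replicate 2 (0.58, adjusted p = 9.44e-05). The share of all genes called rose in these fits too, to 11.6% and 31.6% in CA3 and 23.8% in CA1. With all 4 libraries, CA3 passed without the filter on low counts (0.51, adjusted p = 0.0359) and with the replicate numbers crossed (0.53, adjusted p = 0.0458), beside 7.13% and 8.11% of all genes. CA1 passed with classes from clusters (0.57, adjusted p = 0.0423), beside 6.34%. Summed OPC markers were 81.8 and 94.8 CPM (WT) against 175.5 and 135 CPM (KI) in CA3, and 73.6 and 96.8 CPM (WT) against 143 and 128 CPM (KI) in CA1, and their part was not tested. In CA2 Ptprz1 was at 64.4 and 104 CPM (WT) against 89.6 and 169 CPM (KI), where the genotypes overlapped (0.70 ± 0.33, adjusted p = 0.492). It passed there without KI replicate 1 (1.04, adjusted p = 0.0127), where 3.1% of all genes were called. In subicular or cortical excitatory neurons, KI replicate 1 stood apart at 309 CPM, against 122 CPM in KI replicate 2 and 152 and 84.4 CPM in WT (1.0 ± 0.48, adjusted p = 0.625, beside 0.0% of all genes called). OPC markers summed there to 503 CPM in KI replicate 1, against 192 CPM in KI replicate 2 and 216 and 141 CPM in WT, and their part was not tested. Ptprz1 was called in this gate without the filter on low counts (1.0, adjusted p = 0.00229), with the replicate number as a block (0.88, adjusted p = 0.00560) and without KI replicate 2 (1.56, adjusted p = 0.0147), when 1.82%, 2.94% and 9.21% of all genes were called. Ptprz1 also had positive differences in Cajal-Retzius cells (0.95 ± 0.35, adjusted p = 0.666, edgeR) and oligodendrocytes (0.57 ± 0.25, adjusted p = 0.651). Neither passed, beside 0.0% of all genes called in each gate. Pvalb (-0.32 ± 0.32) and Sst (-0.17 ± 0.19) interneurons and committed OPC (-0.06 ± 0.35) lay the other way. In the 2 gates where Ptprz1 was highest the differences were small, at -0.13 ± 0.17 in OPC and -0.11 ± 0.17 in astrocytes. A direct test of DG against CA1 gave a difference of the genotype effects of 0.46 ± 0.17 (adjusted p = 0.150), which did not pass, nor did any of the 9 genes tested, beside 6.61% of all genes. It passed without KI replicate 1 (0.78, adjusted p = 0.00307) and without the filter (0.47, adjusted p = 0.0171), beside 4.35% and 5.57%.

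Among the lecticans no genotype difference passed in any gate. Acan in the DG gate came closest, at 2.03 and 1.25 CPM (WT) against 4.61 and 3.67 CPM (KI), from 11 to 30 UMIs per library (1.46 ± 0.39, adjusted p = 0.0532). It passed without KI replicate 2 (1.64, adjusted p = 0.000906), without the filter on low counts (1.42, adjusted p = 0.0357), with the replicate number as a block (1.47, adjusted p = 0.0169) and with the numbers crossed (1.46, adjusted p = 0.0142). The share of all DG genes called was 40.0%, 7.95%, 16.0% and 17.1% in these fits. These DG levels were not above the 1.35 to 7.27 CPM of the microglia gate. In the OPC gate Acan lay the other way, at 17.9 and 10.2 CPM (WT) against 6.82 and 7.16 CPM (KI) (-0.91 ± 0.43, adjusted p = 0.408). Vcan in oligodendrocytes was at 36.7 and 41.2 CPM (WT) against 70.6 and 71.3 CPM (KI) (0.95 ± 0.17, adjusted p = 0.456). No gene was called in that gate, where 0.0% of 15085 genes passed. OPC markers summed there to 269 and 342 CPM (WT) against 416 and 401 CPM (KI), and their part was not tested. Vcan passed there without KI replicate 1 (0.94, adjusted p = 3.53e-07), without KI replicate 2 (0.93, adjusted p = 2.11e-05) and without the filter (0.96, adjusted p = 0.0173), where 22.5%, 25.3% and 1.84% of all genes were called. The mean depth of an oligodendrocyte nucleus ran from 2233 to 5226 UMIs between libraries. Bcan was at 25.3 and 18.6 CPM (WT) against 27.6 and 34.2 CPM (KI) in CA1 (0.55 ± 0.21, adjusted p = 0.181), and at 23.4 and 20.1 CPM (WT) against 17.5 and 11.2 CPM (KI) in CA3 (-0.51 ± 0.24, adjusted p = 0.258). Without KI replicate 1 these passed, at 0.64 (adjusted p = 0.0200) and -0.93 (adjusted p = 0.000207), beside 8.96% and 11.6% of all genes. With classes from clusters Bcan in CA1 was called at 1.27 (adjusted p = 0.00343), beside 6.34%. Ncan passed in no gate where it was tested.

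Astrocytes had lower values of several genes in KI without a call. Hapln1 differed by -0.76 ± 0.22 (adjusted p = 0.260), Tnc by -1.28 ± 0.44 (adjusted p = 0.321), Bcan by -0.43 ± 0.19 (adjusted p = 0.423) and Ncan by -0.43 ± 0.24 (adjusted p = 0.512). Vcan (0.22 ± 0.28) and Tnr (0.16 ± 0.24) lay the other way. The median over the 7 genes tested was -0.43, against 0.00 over all 12068 genes, of which 0.0166% were called. The astrocyte gate held 619 and 631 nuclei in WT and 252 and 326 in KI, so these values rest on fewer KI nuclei. Of the 6 astrocyte markers that set the gate, 3 were lower in both KI libraries, and their sum ran from 3662 and 3854 CPM (WT) to 4297 and 2786 CPM (KI). OPC markers summed there to 113 and 72.1 CPM (WT) against 131 and 154 CPM (KI). Committed OPC markers summed to 27.5 and 21.8 CPM (WT) against 44.8 and 45.2 CPM (KI), with 3 of 5 higher in both KI libraries and 1 lower. Of the oligodendrocyte markers 3 of 6 were higher in both KI libraries, and of the DG granule markers 3 of 5 were lower. The part of these lists was not tested. In the OPC gate, where 0.0698% of all genes were called, Tnc differed by -1.08 ± 0.42 (adjusted p = 0.307), and Hapln4 by 1.89 ± 0.63 (adjusted p = 0.249) from 6 and 1 UMIs in WT and 15 and 12 in KI. The 5 OPC markers that set this gate were all lower in both KI libraries than in both WT libraries. The genotype effect in OPC against that in astrocytes was called by edgeR for 0 of 9 genes, beside 0.62% of all genes, and 0 had an unadjusted p below 0.05, beside 8.6%.

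The link protein Hapln4 was low in neurons, with KI values above WT values in DG and CA3. The genotypes did not overlap there, as for 61.2% of genes in DG and 54.6% in CA3 (genes with at least 10 UMIs per library on average). The DG levels lay below the 4.84 to 9.61 CPM of the microglia gate, and the CA3 levels overlapped them. Hapln4 also had positive differences in CA1 (0.81 ± 0.46, adjusted p = 0.352, edgeR) and subicular or cortical neurons (0.77 ± 0.45, adjusted p = 0.656), which did not pass. In the DG gate it was at 1.92 and 2.05 CPM (WT) against 3.53 and 3.84 CPM (KI) (1.02 ± 0.33, adjusted p = 0.0953), and in CA3 at 4.85 and 3.36 CPM (WT) against 6.18 and 9.04 CPM (KI) (0.93 ± 0.31, adjusted p = 0.137). Neither passed, though CA3 did without KI replicate 1 (1.15, adjusted p = 0.00342) and without the filter (0.91, adjusted p = 0.0396), beside 11.6% and 7.13% of all genes. In the net-bearing gates 4 genes were tested in Pvalb interneurons and 5 in CA2, and none passed, where 0.0155% and 0.0287% of all genes did. Besides Ptprz1, Vcan in CA2 differed by -0.76 ± 0.42 and Hapln1 in Pvalb by 0.71 ± 0.44. With classes from clusters Hapln1 in Pvalb turned to -1.0 (adjusted p = 0.0186) and Vcan there was called at -0.73 (adjusted p = 0.0205), beside 3.08% of all genes, so no direction is given for Pvalb cells. Has3 passed in none of the gates where it was tested, and Tnr in none of the 18 with all 4 libraries. Without KI replicate 1 Tnr was called in oligodendrocytes (0.74, adjusted p = 5.49e-08), and without KI replicate 2 in DG (-0.23, adjusted p = 0.00169) and CA3 (-0.26, adjusted p = 0.0106), beside 22.5%, 40.0% and 31.6% of all genes.

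**Figure D4:**
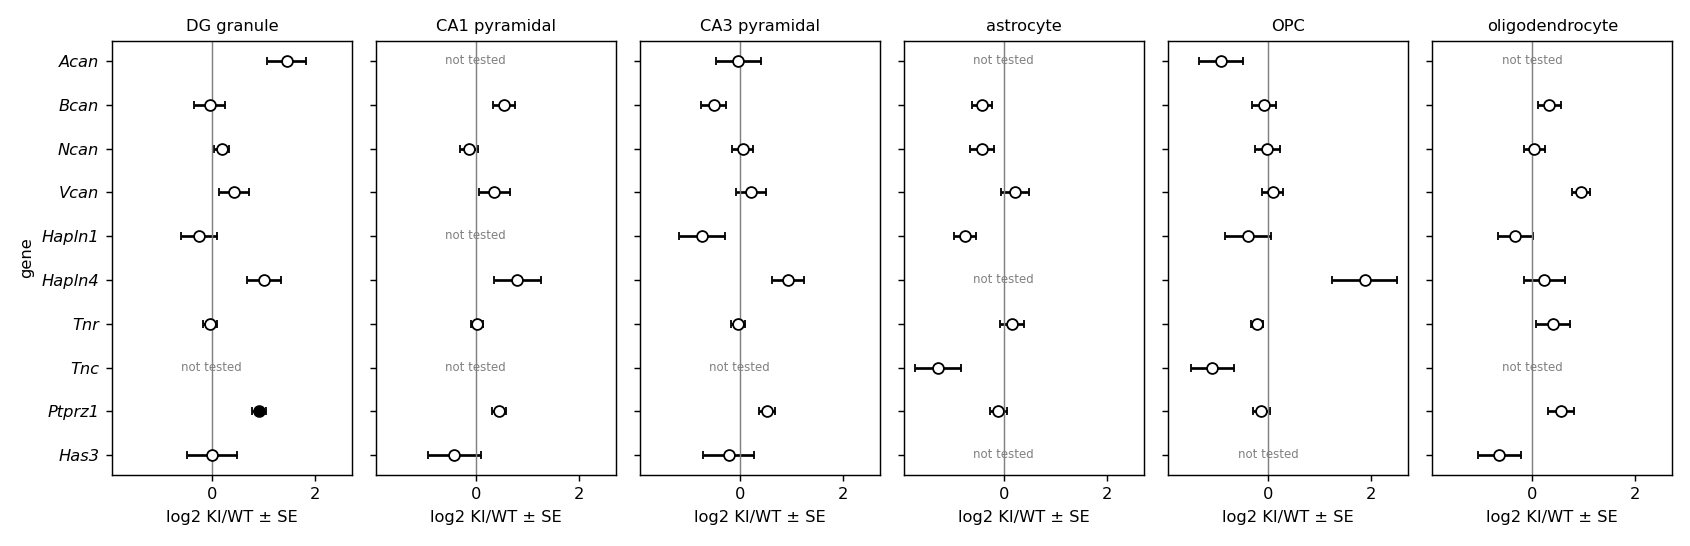
Log2 fold change of KI over WT with its standard error (x axis) for the 10 genes (y axis) in 6 gates; a filled point has an adjusted p below 0.05 and genes under the low-count filter are marked as not tested. The 1 filled point is Ptprz1 in the DG granule gate (0.92).

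Over all nuclei, 10 of 10 genes were tested and 0 passed (edgeR quasi-likelihood test), beside 0.889% of all genes. Of the 10, 3 had an unadjusted p below 0.05, beside 24.3% of all genes. DESeq2 called 1, Hapln4, beside 9.21% of all genes. Ptprz1 was at 162 and 168 CPM (WT) against 198 and 205 CPM (KI) (0.34 ± 0.08, adjusted p = 0.0910). Hapln4 was at 3.77 and 3.29 CPM (WT) against 5.52 and 5.78 CPM (KI) (0.73 ± 0.18, adjusted p = 0.0988). Such sums mix classes whose numbers differ between libraries, so that fewer nuclei of a class and less RNA per nucleus cannot be told apart in them. The astrocyte gate alone held 4.15% and 5.10% of nuclei in the WT libraries, against 2.11% and 2.55% in the KI libraries.

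Other genes of the same matrix were described from a list of 53 genes in 6 groups. In the DG gate 43 were tested, of which 6 rose and 4 fell, beside 10.4% of all genes in either direction (median log2 fold change -0.01, against 0.00 for all genes). Among binding partners, 2 of 9 rose: Sema3a, a repulsive cue that binds nets, and Nptx2, an activity-regulated pentraxin that gathers at synapses on Pvalb cells. Sema3a was at 3.21 and 4.55 CPM (WT) against 36.1 and 30.7 CPM (KI) (3.24 ± 0.23, adjusted p = 0.000705). Nptx2 was at 2.89 and 3.64 CPM (WT) against 11.1 and 14.1 CPM (KI) (2.07 ± 0.26, adjusted p = 0.00335). The genotypes were far apart for both. Sema3a rose also in Sst interneurons, from 22.0 and 26.5 CPM to 74.9 and 72.5 CPM (1.74 ± 0.28, adjusted p = 0.00143), 1 call among 26 genes tested there beside 1.58% of all genes. DESeq2 did not call it in Sst (adjusted p = 0.0587), while its log2 fold change there was 1.58 to 1.88 over 13 alternatives.

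Enzymes that build chondroitin sulfate moved both ways in DG, with 2 rises and 2 falls among 15 tested. Csgalnact1, which starts the chain, fell from 135 and 134 CPM to 30.3 and 48.9 CPM (-1.64 ± 0.19, adjusted p = 0.00273), and Ust, a uronyl sulfotransferase, fell from 251 and 266 CPM to 112 and 122 CPM (-1.01 ± 0.10, adjusted p = 0.00174). Chsy3, a chain-extending synthase, rose from 229 and 248 CPM to 405 and 465 CPM (1.0 ± 0.10, adjusted p = 0.00184), and Chst7, a 6-O-sulfotransferase, rose by 1.23 ± 0.25 (adjusted p = 0.0224). Ust, Chsy3, Chst7 and Timp3 are named here after their values were seen. The protease genes Adamts1 (-1.59 ± 0.31, adjusted p = 0.0187; 0.0713 and 0.0507 without WT replicate 1 and 2, and 0.0569 without doublet removal) and Adamts9 (-1.33 ± 0.19, adjusted p = 0.00599) fell in DG, and the inhibitor Timp3 rose by 0.55 ± 0.14 (adjusted p = 0.0476). ADAMTS proteases include cutters of lecticans. Adamts9 was higher in KI in CA1, from 8.31 and 6.61 CPM to 19.3 and 20.8 CPM (1.49 ± 0.23, adjusted p = 0.0168), the 1 call among 38 genes tested there beside 3.68% of all genes. With classes from clusters it was at 0.96 and lost its call (adjusted p = 0.0601). Cemip2, a cell-surface protein of hyaluronan turnover, rose in DG by 1.26 ± 0.16 (adjusted p = 0.00389). Outside DG, CA1 and Sst no gene of this list passed in any tested gate.

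**Figure D5:**
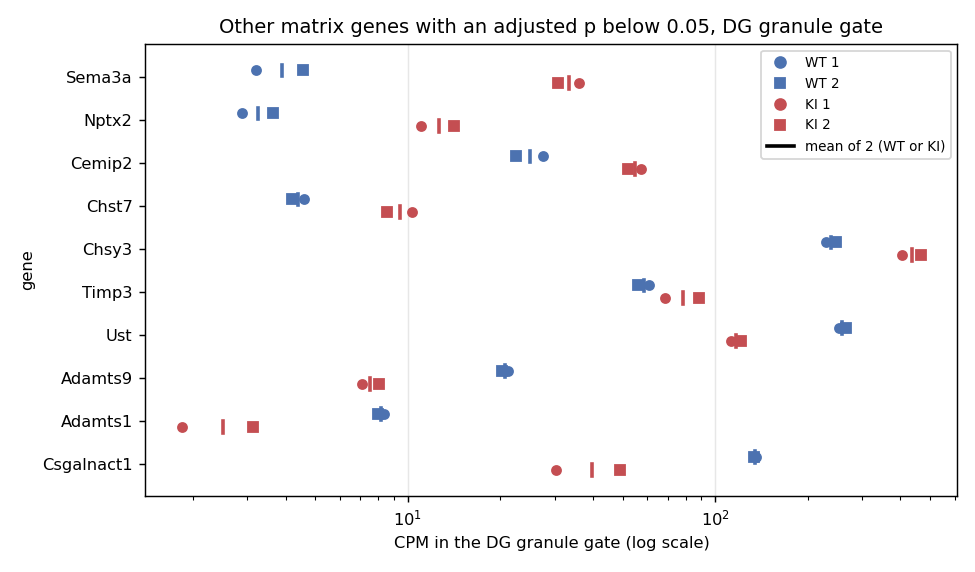
CPM on a log scale (x axis) of the 10 other matrix genes called in the DG granule gate (y axis), with 1 point per library and a bar at the mean of each genotype. The 6 upper genes are higher in both KI libraries and the 4 lower genes are lower, with Sema3a (3.21 and 4.55 against 36.1 and 30.7) the most separated.

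Likeness of pattern was measured as Pearson's r of log2(CPM + 1) over the means of 18 gates, which share libraries, depth and free RNA, and it is a description. The gene most like Tnr was Gm38039 (r = 0.92), and the one most like Tnc was 8030451A03Rik (r = 0.87). Both overlap the gene they resemble on the opposite strand, so shared reads are not separated here. Vcan was most like Rbpjl (r = 0.91) and the hyaluronan synthase Has2 (r = 0.88), each highest in committed OPC. Ptprz1 was most like Cspg5 (r = 0.85), a brain proteoglycan, and Abhd10 (r = 0.83). Hapln1 was most like the transcription factor gene Nr2e1 (r = 0.87) and Gm34623 (r = 0.84), the latter also highest in Lamp5 interneurons. The second most like Tnr was Dct (r = 0.90) and the second most like Tnc Fam181b (r = 0.84). Bcan was most like Utp14b and Cyp2j6 (r = 0.89 for both), Ncan like Gm38562 (r = 0.86) and Riiad1 (r = 0.84), Hapln4 like Plekha8 (r = 0.90) and Mfsd1 (r = 0.89), and Acan like Gm26633 (r = 0.80) and 4932413F04Rik (r = 0.74).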

How the data were processed

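Nuclei of frozen hippocampi from 2 WT and 2 KI mice gave 1 droplet library per mouse (3' chemistry). Per the file headers, the authors counted UMIs with Cell Ranger 7.0.1, and the deposited values are raw UMI counts per gene and barcode; the submitters' processing notes name mm10. Neither the gene annotation nor the handling of intronic reads was given in the sources used here. GENCODE M21 held 32158 of 32285 gene IDs.

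The filter asked for 500 or more genes and less than 5% mitochondrial UMIs per barcode (345 removed), and 3263 doublets were removed by Scrublet (scanpy 1.11.5, score above 0.25), leaving 52032 nuclei. A nucleus entered the gate whose marker list was most enriched, each marker scored by the -log10 Poisson p of its count against the library's share, capped at 3. A gate needed at least 2 markers, a score of 2 and a lead of 1 over the next list, and interneuron gates also needed 2 shared inhibitory markers. Of the gated nuclei, 3714 lay within 0.5 of a limit. These limits were set after marker counts had been seen. Counts were summed per library and gate. KI was compared with WT where every library had at least 20 nuclei (18 gates) by edgeR 4.0.16 (R 4.3.3): low-count filter, TMM factors, quasi-likelihood test, Benjamini-Hochberg adjustment over all genes of the fit, threshold 0.05. Gates were compared in 1 fit with gate and library as terms over gates with at least 5 nuclei in a library, and genotype effects between gates by an interaction term. Simulated data with 200 genes changed 4 times gave back 98.5% of them for KI against WT in DG and 91.0% for OPC against astrocytes. Genes called wrongly numbered 10 and 7. The simulation gave all genes the same dispersion, so it does not measure recovery of smaller changes or in gates with fewer nuclei. Replicates of a genotype were checked for repeated deposits of 1 library and differed beyond counting noise (chi-square per degree of freedom 15.4 in WT and 43.0 in KI over genes). With totals of the gate in place of TMM, the median of all genes moved by over 0.1 (log2) in 10 of the fits, in DG to -0.13.

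All 10 genes were named. Of 53 other matrix genes, the rule named the 8 results with the largest change among those called at a mean of 5 CPM or more. Per gene with 5 CPM in a gate, the 2 most alike genes were named (no marker, at least 10 CPM in a gate). The genes, lists and tests were chosen with earlier results of these data known. No source pairs same-numbered libraries, so the reported fits have no pairing. The study's own test on single nuclei was not used, since nuclei of 1 mouse are not replicates.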

Additional observations from a re-analysis of the deposited data

Results flagged for a closer look

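The effect of genotype differed between the DG granule and CA1 gates for 8 of the 41 other matrix genes tested by an interaction term (edgeR quasi-likelihood test, adjusted over all genes of the fit), and for 0 of the 9 perineuronal net and lectican genes tested, beside 6.61% of all genes. The difference of the log2 fold changes (DG less CA1) was -2.82 ± 0.26 (SE, adjusted p = 2.57e-05) for Adamts9, which fell in DG and was higher in CA1. It was -2.11 for Adamts1, -1.74 for Csgalnact1 and -1.20 for Ust on the lower side. On the higher side it was 2.61 for Sema3a, 1.27 for Nptx2, 0.61 for Chsy3 and 0.77 for Rtn4rl1, a receptor gene named here after its value was seen.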

How the results depend on the processing

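Ptprz1 in the DG granule gate stayed called in the same direction under all 13 alternatives, with log2 fold changes of 0.76 to 1.07 and adjusted p up to 0.0174. The number of calls for KI against WT in gates (1, beside 1.67% of all tests) became 6 without the low-count filter (1.69%), 3 with the replicate number as a block (replicate block, 3.32%), 5 with classes from Leiden clusters (2.21%), and 1 to 12 when 1 library was left out: 12 without KI replicate 1 (6.62%) and 9 without KI replicate 2 (13.6%), where the lone KI library is assumed to vary like the WT pair. Those 12 and 9 include, beside the values given above, Ptprz1 in oligodendrocytes (0.78) and microglia (0.69) and Vcan in CA3 (0.60) without KI replicate 1, and Vcan in OPC (0.42) without KI replicate 2. The deviations of same-numbered libraries correlated at 0.03 over all nuclei and -0.22 to 0.30 in gates, above 0.1 in 3 of 18 (subicular or cortical 0.30, CA2 0.14, committed OPC 0.11) and below -0.1 in 2. The block called Acan in DG and Ptprz1 in the subicular or cortical gate beside Ptprz1 in DG. A crossed pairing, added after the correlations were seen, gave 3 (3.1%). Over all nuclei the count of 0 became 1 with DESeq2 (beside 9.21% of all genes) and 0 to 5 with 1 library left out (5 without KI replicate 2, beside 32.4%: Ptprz1, Hapln4, Hapln1, Ncan and Tnr); the block left it at 0. For the Pvalb contrast the count of 3 became 5 without the filter (beside 4.55% of all genes) and 6 with clusters (11.2%), where Vcan turned to 1.15 (adjusted p = 7.2e-06) from -0.95; the cause was not tested. Leaving out 1 library gave 3 to 4 there and 1 to 3 for the CA2 contrast (1 without WT replicate 2, beside 2.72%). The count of 0 for genotype effects in DG against CA1 became 1 without the filter (Ptprz1, beside 5.57%), 1 with clusters (Bcan, 12.3%) and 1 without KI replicate 1 (Ptprz1, 4.35%; range 0 to 1), and that for OPC against astrocytes 1 without KI replicate 1 (Tnr, 1.46%; range 0 to 1). The remaining counts stayed within 1.5 times. Clusters named by the same markers held no CA2 class, so that contrast has no value there. Among the 46 single results followed through the alternatives, 484 of 523 values kept their side of the threshold, 12 lost a call and 26 gained one. With 2 mice per genotype, the few UMIs of Acan, Hapln4, Tnc and Has3 limit what size of change could be detected.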
